A study of Mus musculus with 16 samples.

Results

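The genes described here are 9 members of the mitogen-activated protein (MAP) kinase pathway in cultured mouse hippocampal neurons: the phosphatase genes Dusp1, Dusp4, Dusp5 and Dusp6, the Sprouty genes Spry1, Spry2 and Spry4, Map3k12, which encodes the kinase DLK, and Mapk3, which encodes the kinase ERK1. They were chosen by name from the 48397 genes counted in each of 16 RNA-seq libraries, and all 9 were among the 17038 genes with enough reads to be tested. Neurons came from the hippocampi of newborn (P0-P2) wild type CD1 mice, received cytosine arabinoside at 3 days in vitro (DIV) against dividing cells, and were harvested at 17 DIV. At 10 and 13 DIV they received 10-fold concentrated medium conditioned by immortalized astrocytes. The astrocytes were homozygous for human apoE2, apoE3 or apoE4 in 3 of the groups and Apoe-/- in the control group, whose medium lacked human apoE. Each group had 4 libraries, numbered 1 to 4. The neurons themselves were wild type in all 4 groups. The groups differ in the astrocyte line that made the medium, and the lines were derived from targeted replacement and Apoe-/- mice, so the apoE isoform and other properties of a line cannot be told apart.

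ERK is switched on by phosphorylation at the end of the RAS, RAF and MEK relay that growth factor receptors start, and neurons use it in synaptic plasticity and dendrite growth. Active ERK raises the transcription of its own brakes. DUSP proteins take the phosphates off MAP kinases, and Sprouty proteins dampen the relay between the receptor and RAF, so that the mRNA levels of these genes are often read as a trace of recent ERK activity. DLK stands at the top of a neighboring relay that leads to the kinase JNK, and is known in neurons for its part in axon injury and growth. Only mRNA was measured here, and neither kinase activity nor phosphorylation.

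Upstream sequence was read from RefSeq promoter windows (GRCm38.p6), which held entries for 6 of the 9 genes. It is shown for Dusp5, Dusp6 and Spry2, which were all high in replicate number 3, and for Dusp1, which was highest there in 1 of 4 groups. Each stretch is 200 bases long, runs 5′ to 3′ on the strand of the gene and ends 51 bases before its start in RefSeq. For Dusp1 and Dusp5 this start differs from the outermost start in GENCODE, the annotation used for exon lengths. The GENCODE starts are chr17:26562128 and chr19:53529109. Capitals mark matches to the motifs searched on both strands: the cyclic AMP response element (CRE, TGACGTCA), its core TGACG, which overlaps the full element, the AP-1 site TGANTCA, the ETS site CCGGAAGT, and the CArG box that serum response factor binds.
Dusp1, chr17:26508523-26508722, minus strand: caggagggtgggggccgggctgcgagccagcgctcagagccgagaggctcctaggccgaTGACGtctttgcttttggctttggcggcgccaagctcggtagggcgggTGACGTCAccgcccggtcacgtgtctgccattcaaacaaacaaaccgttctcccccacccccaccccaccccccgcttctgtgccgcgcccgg
Dusp5, chr19:53528895-53529094, plus strand: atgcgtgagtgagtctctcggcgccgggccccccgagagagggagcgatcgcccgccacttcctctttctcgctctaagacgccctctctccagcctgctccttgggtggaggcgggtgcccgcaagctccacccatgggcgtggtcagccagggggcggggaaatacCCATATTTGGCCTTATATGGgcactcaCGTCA
Dusp6, chr10:99262981-99263180, plus strand: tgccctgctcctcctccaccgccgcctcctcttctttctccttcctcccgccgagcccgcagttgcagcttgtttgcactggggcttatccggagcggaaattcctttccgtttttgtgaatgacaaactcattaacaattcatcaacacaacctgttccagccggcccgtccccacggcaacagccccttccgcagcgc
Spry2, chr14:105896870-105897069, minus strand: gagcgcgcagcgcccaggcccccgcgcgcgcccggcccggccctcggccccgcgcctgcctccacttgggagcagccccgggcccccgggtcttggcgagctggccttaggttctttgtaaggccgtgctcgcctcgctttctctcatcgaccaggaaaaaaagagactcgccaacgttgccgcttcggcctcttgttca
Over the 250 bases before the RefSeq start, the Dusp1 window held 1 full CRE, ending 136 bases before that start, and a further core at 187 bases. The Dusp5 window held 2 CArG boxes side by side, at 73 and 63 bases, and 1 CRE core at 51 bases, counted from the RefSeq start. These matches lie nearer to the GENCODE start of Dusp5. No searched motif matched in the windows of Dusp6 and Spry2, nor in those of Spry1 and Map3k12, which are not shown. Among all 32851 windows of that length, 1.55% held the full CRE, 17.8% its core, 6.75% the AP-1 site, 2.88% the ETS site and 1.47% a CArG box. These matches are letters in a window and were not tested as binding sites.

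The libraries held 14087723 to 34248172 counts on genes, with a median of 22221832. Of the reads counted, 38.4 to 73.7% were not assigned to a single gene, and 0.359 to 15% of gene counts fell on Lars2 alone. The libraries apoE2 4 and apoE4 2 stood apart, with 38.4 and 38.6% of reads not assigned and 0.69 and 0.359% on Lars2, against at least 51.4% and 2.83% in the others. Neuronal markers summed to between 2880 and 7280 CPM (read counts per gene scaled to a common library size), astrocyte markers to between 1310 and 6580, oligodendrocyte lineage markers to between 98.6 and 738, microglial markers to between 14 and 80.1, endothelial markers to between 1.13 and 4.07, mural and fibroblast markers to between 22.5 and 307 and markers of dividing cells to between 6.4 and 39.9. All 8 neuronal markers passed the low-count filter, as did all 8 astrocyte, all 8 oligodendrocyte lineage and all 8 microglial markers. In 3 libraries (apoE3 1, apoE3 4 and apoE4 4) the astrocyte sum exceeded the neuronal one. In such bulk RNA, fewer cells of a type and less RNA per cell cannot be told apart.

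Per kilobase of exon, Spry2 (39.8 ± 12.9 RPKM, SD, n = 16), Dusp6 (33.4 ± 12), Mapk3 (27.2 ± 4.35) and Dusp4 (25.3 ± 13.8) had the highest levels of the 9 genes, and their spreads overlapped. Map3k12 followed at 10.3 ± 0.933 RPKM. Spry4 (6.98 ± 2.54), Dusp5 (5.95 ± 2.32) and Spry1 (5.79 ± 1.20) lay within one another's spread. Dusp1 was lowest at 3.13 ± 0.786 RPKM, and ranked 8 or 9 of 9 in every library. Spry2 ranked 1 or 2 in every library. Map3k12 varied least around its mean.

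The first question was whether medium with an apoE isoform changed any of these genes against control medium. None of them passed the threshold. By edgeR's quasi-likelihood test over all genes, at an adjusted p under 0.05, 0 of 9 genes were called with apoE2, against 0% of all genes tested, 0 of 9 with apoE3, against 0.00587%, and 0 of 9 with apoE4, against 0.194%. Between isoforms, 0 of 9 were called for apoE3 against apoE2 (0% of all genes), for apoE4 against apoE2 (0.252%) and for apoE4 against apoE3 (0.147%). At an unadjusted p under 0.05 the count was also 0 of 9 in each comparison, against 2.79%, 6.43%, 3.3%, 2.28%, 5.34% and 4.7% of all genes in the same order. DESeq2 called 0 of 9 as well, against 29, 60, 91, 9, 163 and 69 of 17026 genes in the same order. The 3 comparisons with control share the 4 control libraries. Every pair of groups overlapped for every one of the 9 genes. The share of all tested genes with such overlap was not counted, so this only describes the 9.

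Of the 54 log2 fold changes of the 9 genes over the 6 comparisons, 12 lay more than 1 standard error from 0. Against control, log2 fold changes ran from -0.40 to 0.25 with apoE2 (median -0.10, against 0.01 over all genes tested), from -0.43 to 0.26 with apoE3 (median -0.03, against 0.02) and from -0.12 to 0.44 with apoE4 (median 0.03, against 0). Of the 9 genes, 2 lay above 0 with apoE2, 3 with apoE3 and 6 with apoE4. For apoE4 against apoE3 they ran from -0.37 to 0.65 and 7 of 9 lay above 0.

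**Figure D1:**
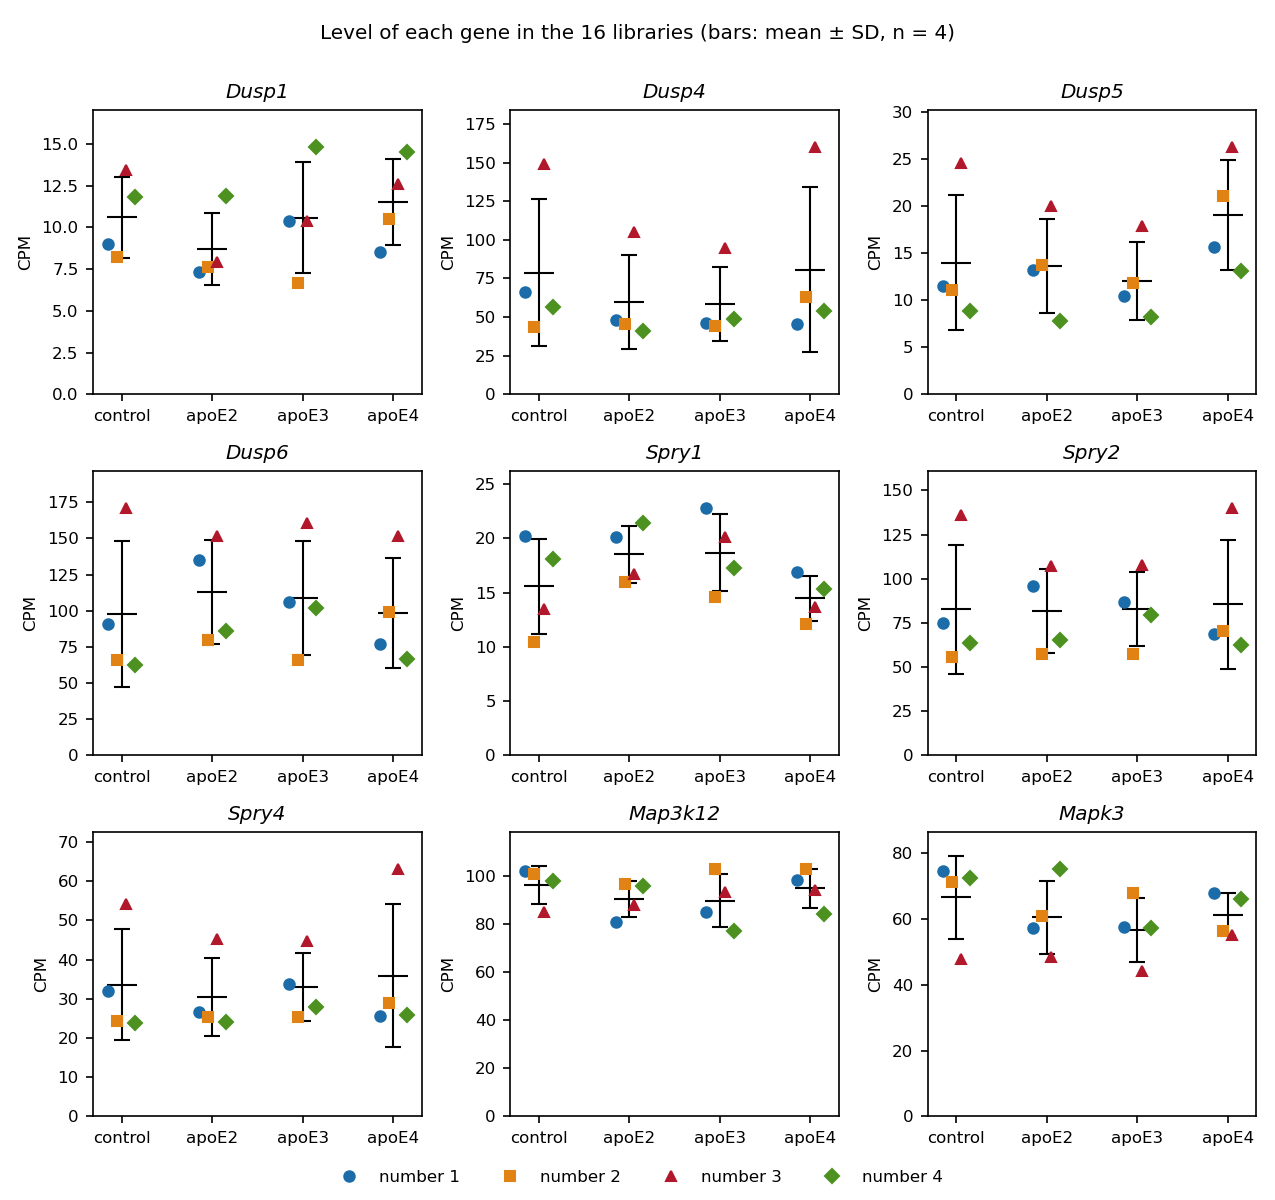
CPM (vertical axes, linear from 0) of the 9 genes in the 4 groups; each point is 1 library, marked by its replicate number, and bars give the mean ± SD (n = 4). The groups overlap for every gene, and number 3 is the highest library of every group for Dusp4, Dusp5, Dusp6, Spry2 and Spry4.

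The libraries differed far more by their replicate number than by their medium. Samples with the same number deviated from their group means together, with correlations across genes between 0.362 and 0.552 for number 1, 0.766 and 0.831 for number 2, 0.62 and 0.671 for number 3, and 0.681 and 0.79 for number 4. Between libraries of different numbers and different groups they ran from -0.736 to 0.569, a range that holds the values of number 1. Of the variance of log2 CPM, the numbers held 88.7% for Spry4, 85.1% for Spry2, 84.9% for Dusp4, 75.5% for Dusp6 and 71.6% for Dusp5, while the median over all tested genes was 56.1%. The groups held 2.23%, 0.331%, 7.72%, 5.29% and 22.4% for the same 5 genes, against a median of 14.4% over all tested genes. The numbers held 62.4% for Mapk3, 59.9% for Dusp1, 54.7% for Spry1 and 33.1% for Map3k12. For these the groups held 12.2%, 18.1%, 29.3% and 12.9%. A second fit therefore took the replicate number as a block, which lowered the common dispersion from 0.132 to 0.0178.

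In the blocked fit, 1 of the 9 genes was called, and in the comparisons of apoE4 only. That gene was Dusp5. With apoE2, 0 of 9 were called, against 1.73% of all genes, and with apoE3 0 of 9, against 11.7%. With apoE4, 1 of 9 was called, against 3.3%. For apoE3 against apoE2 the count was 0 of 9 (1.31% of all genes), for apoE4 against apoE2 it was 1 of 9 (4.44%) and for apoE4 against apoE3 it was 1 of 9 (1.76%).

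**Figure D2:**
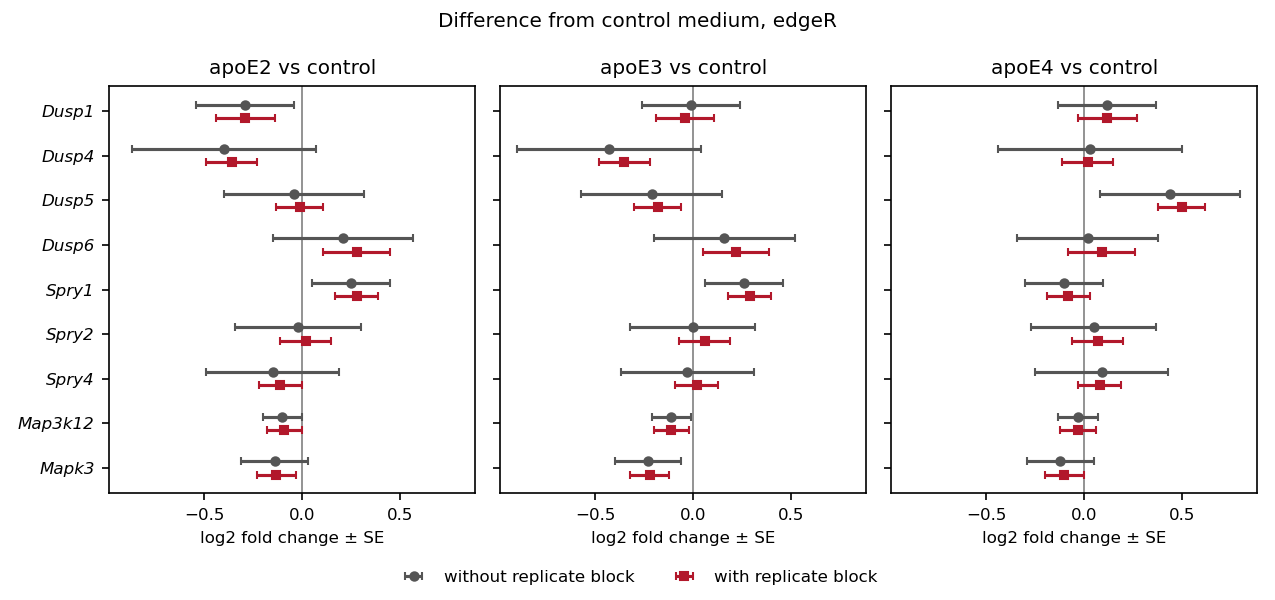
Log2 fold change ± SE (horizontal axes) of the 9 genes against control medium with apoE2, apoE3 and apoE4, from the edgeR fit without (circles) and with (squares) the replicate number as a block. The estimates of both fits lie close together and the blocked errors are smaller; Dusp5 with apoE4, at 0.50 ± 0.12 in the blocked fit, is the 1 value shown that was called.

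Dusp5 encodes a nuclear phosphatase with a strong preference for ERK, and ERK activity induces it. Its level was 11.5, 11.1, 24.6 and 8.85 CPM in control libraries 1 to 4, and 13.2, 13.8, 20 and 7.78 CPM with apoE2. It was 10.5, 11.8, 17.9 and 8.20 CPM with apoE3, and 15.7, 21.1, 26.3 and 13.1 CPM with apoE4. Within every number the apoE4 library was the highest of the 4, although the groups overlapped. Of all tested genes, 2.42% had their highest level with apoE4 in all 4 numbers. Without the block, the log2 fold change with apoE4 was 0.44 ± 0.36 (SE) against control (adjusted p = 1, edgeR), 0.48 ± 0.36 against apoE2 (adjusted p = 1, edgeR) and 0.65 ± 0.36 against apoE3 (adjusted p = 1, edgeR). With the block it was 0.50 ± 0.12 (adjusted p = 0.0356, edgeR), 0.51 ± 0.12 (adjusted p = 0.0248) and 0.67 ± 0.12 (adjusted p = 0.0105). Within numbers, the log2 difference ran from 0.10 to 0.92 against control, from 0.25 to 0.74 against apoE2 and from 0.56 to 0.84 against apoE3. The largest against control was in number 2, whose apoE4 library was one of the pair that stood apart. Without apoE4 2 the blocked values were 0.41 ± 0.13 against control (adjusted p = 0.108, edgeR), 0.42 ± 0.13 against apoE2 (adjusted p = 0.0812) and 0.59 ± 0.13 against apoE3 (adjusted p = 0.0401). Without apoE2 4 they were 0.48 ± 0.12 (adjusted p = 0.0223, edgeR), 0.44 ± 0.13 (adjusted p = 0.0863) and 0.67 ± 0.12 (adjusted p = 0.00686).

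The call for Dusp5 depended on single libraries. Leaving out 1 of the 16 libraries at a time from the blocked fit, it was kept in 7 of 16 fits against control, with adjusted p between 0.0168 and 0.14 (edgeR). It was kept in 11 of 16 fits against apoE2, with adjusted p up to 0.0863 (edgeR), and in 14 of 16 against apoE3, with adjusted p up to 0.0608 (edgeR). Against control it was lost without control 1, 2 or 4, without apoE2 2 or 3, without apoE3 1, or without apoE4 1, 2 or 4. Against apoE2 it was lost without apoE2 2, 3 or 4 or apoE4 2 or 4, and against apoE3 without apoE3 1 or 3. In these fits the log2 fold change stayed between 0.38 and 0.63 against control, 0.42 and 0.58 against apoE2, and 0.59 and 0.74 against apoE3. Dusp5 lies at chr19:53529109-53542431 on the plus strand in GENCODE, and 22.1% of its exon bases overlap AC137853.2 on the other strand. Whether counting used strand is not stated, so reads of the pair may not be told apart.

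**Figure D3:**
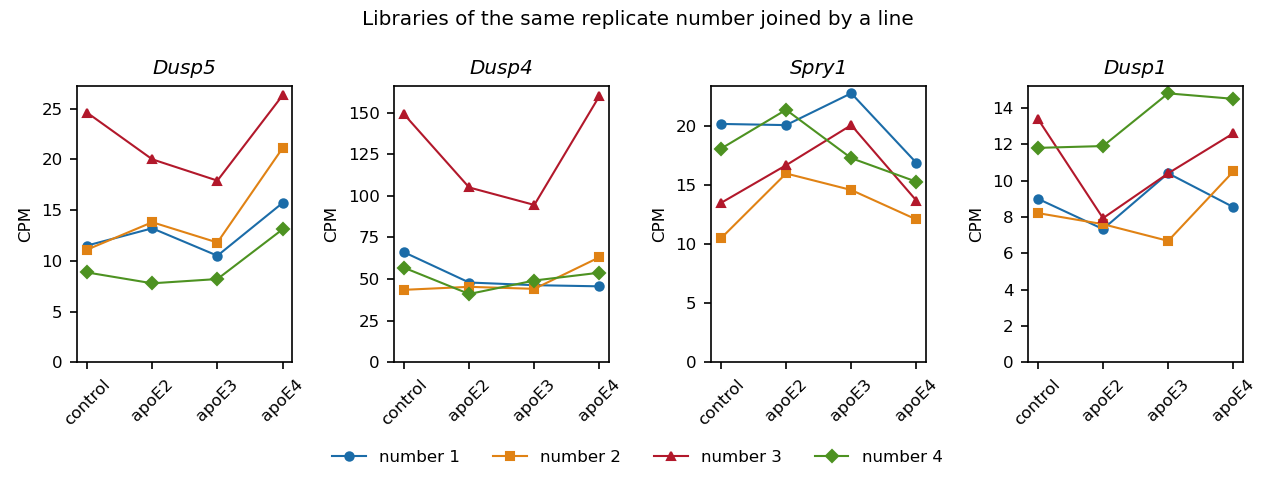
CPM (vertical axes, linear from 0) of Dusp5, Dusp4, Spry1 and Dusp1 by group, with the 4 libraries of 1 replicate number joined by a line. The apoE4 point is the highest on all 4 lines of Dusp5, and lies below the apoE2 and apoE3 points on all 4 lines of Spry1.

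Dusp4 encodes an inducible nuclear phosphatase that acts on ERK and other MAP kinases. Its level was 66.1, 43.5, 149 and 56.8 CPM in control libraries 1 to 4, and 47.9, 45.3, 105 and 41 CPM with apoE2. It was 46.3, 44.1, 94.5 and 49.1 CPM with apoE3, and 45.6, 63.1, 160 and 53.8 CPM with apoE4. Number 3 stood far above the others in each group. Log2 fold changes against control were -0.40 ± 0.47 (SE) with apoE2, -0.43 ± 0.47 with apoE3 and 0.03 ± 0.47 with apoE4. The blocked values were -0.36 ± 0.13 (adjusted p = 0.225, edgeR), -0.35 ± 0.13 (adjusted p = 0.102, edgeR) and 0.02 ± 0.13 (adjusted p = 0.97, edgeR). In the blocked fit Dusp4 was called for apoE3 against control only without control 2, at -0.48 (adjusted p = 0.0232, edgeR), or without all of number 2, and for apoE4 against apoE2 only without apoE4 1, at 0.50 (adjusted p = 0.0398, edgeR).

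Dusp6 encodes the cytoplasmic phosphatase that is most selective for ERK and is a standard transcript readout of fibroblast growth factor signaling. Its level was 91, 66.2, 171 and 62.2 CPM in control libraries 1 to 4, and 135, 79.9, 152 and 85.7 CPM with apoE2. It was 106, 66.3, 161 and 102 CPM with apoE3, and 76.7, 99.4, 152 and 66.8 CPM with apoE4. Number 3 was again highest in each group, and no group was highest in more than 1 number. The log2 fold changes against control were 0.21, 0.16 and 0.02 with apoE2, apoE3 and apoE4, each ± 0.36 (SE).

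Dusp1 encodes a phosphatase of ERK, p38 and JNK and is an immediate early gene. Its level was 9, 8.21, 13.4 and 11.8 CPM in control libraries 1 to 4, and 7.33, 7.60, 7.93 and 11.9 CPM with apoE2. It was 10.4, 6.68, 10.4 and 14.8 CPM with apoE3, and 8.54, 10.5, 12.6 and 14.5 CPM with apoE4. Unlike the other 3 phosphatase genes it was highest in number 4 on average, at 13.3 ± 1.63 CPM (SD, n = 4) against 11.1 ± 2.43 in number 3. It was higher with apoE4 than with apoE2 in 4 of 4 numbers. The log2 fold change was 0.41 ± 0.25 (SE, adjusted p = 1, edgeR), and 0.42 ± 0.15 with the block (adjusted p = 0.137), so it was not called. Against control the log2 fold change of Dusp1 was -0.29 ± 0.25 with apoE2 and 0.12 ± 0.25 with apoE4.

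The Sprouty genes encode inhibitors of receptor tyrosine kinase signaling. Spry1 was at 20.2, 10.5, 13.5 and 18.1 CPM in control libraries 1 to 4, and at 20.1, 16, 16.7 and 21.4 CPM with apoE2. It was at 22.8, 14.6, 20.1 and 17.3 CPM with apoE3, and at 16.9, 12.1, 13.7 and 15.3 CPM with apoE4. The apoE4 library was below the apoE2 and apoE3 libraries in 4 of 4 numbers, and number 2 was the lowest of each group. The log2 fold change was -0.36 ± 0.20 (SE) against apoE2 (adjusted p = 1, edgeR; 0.095 with the block) and -0.37 ± 0.20 against apoE3 (adjusted p = 1, edgeR; 0.133 with the block), and neither was called. Of the exon bases of Spry1, 24.4% overlap Gm42922 on the other strand.

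Spry2 was at 75.1, 55.9, 136 and 63.9 CPM in control libraries 1 to 4, and at 96.1, 57.6, 107 and 65.5 CPM with apoE2. It was at 86.9, 57.5, 108 and 79.4 CPM with apoE3, and at 68.7, 70.6, 140 and 62.6 CPM with apoE4. The group means ran from 81.6 to 85.5 CPM, while number 3 stood at 123 ± 17.6 CPM (SD, n = 4). Spry4 was at 32, 24.4, 54.1 and 23.8 CPM in control libraries 1 to 4, and at 26.6, 25.4, 45.2 and 24.2 CPM with apoE2. It was at 33.7, 25.3, 44.8 and 28 CPM with apoE3, and at 25.6, 29, 63.1 and 25.8 CPM with apoE4. For both genes number 3 was highest in every group, and the log2 fold changes against control lay between -0.15 and 0.09 with errors of 0.32 and 0.34.

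Map3k12 encodes DLK. Its level was 102, 101, 85 and 98.1 CPM in control libraries 1 to 4, and 81, 97, 87.9 and 96.1 CPM with apoE2. It was 85.3, 103, 93.6 and 77.4 CPM with apoE3, and 98.4, 103, 94.2 and 84.1 CPM with apoE4. No number stood apart, and all 16 libraries lay between 77.4 and 103 CPM. Log2 fold changes against control were -0.10, -0.11 and -0.03 with apoE2, apoE3 and apoE4, each ± 0.10 (SE). Of its exon bases, 19.3% overlap Gm10337 and Pcbp2 on the other strand.

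Mapk3 encodes ERK1, a kinase that the DUSP proteins act on. Its level was 74.6, 71.4, 47.9 and 72.4 CPM in control libraries 1 to 4, and 57.4, 60.9, 48.6 and 75.2 CPM with apoE2. It was 57.6, 68, 44.2 and 57.2 CPM with apoE3, and 67.8, 56.4, 55.1 and 66.1 CPM with apoE4. Here number 3 was the lowest of every group. Against control it was lower with apoE3 in 4 of 4 numbers, at a log2 fold change of -0.23 ± 0.17 (SE, adjusted p = 0.807, edgeR; 0.17 with the block), and was not called.

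**Figure D4:**
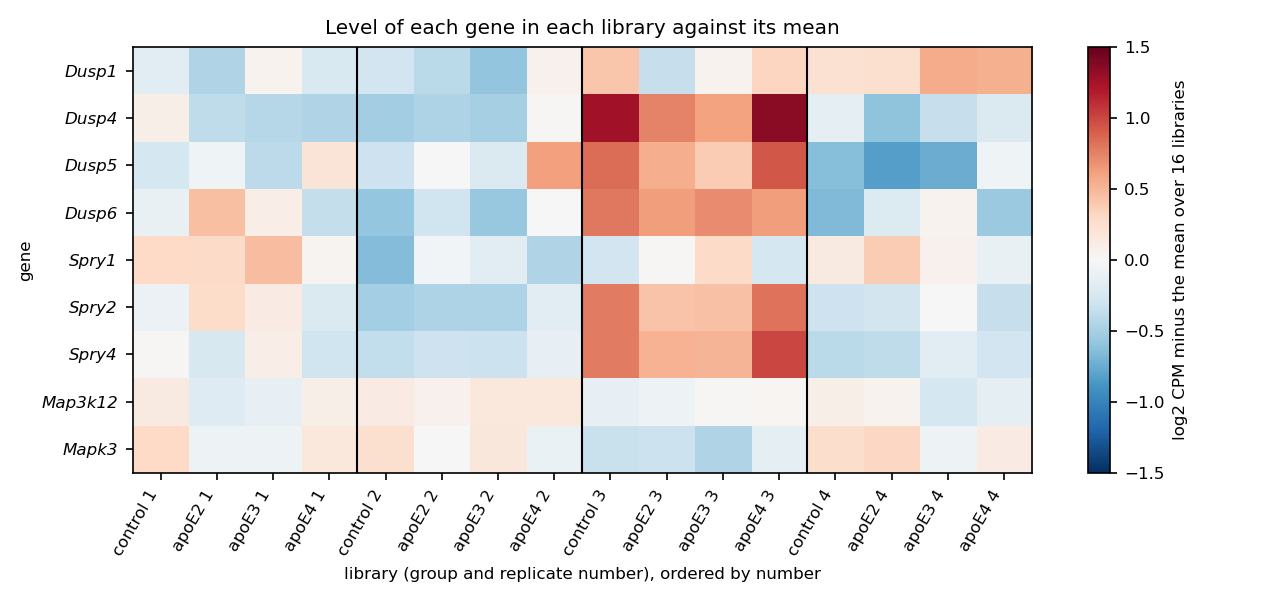
Log2 CPM of the 9 genes (rows) in the 16 libraries (columns, ordered by replicate number, with lines between numbers) minus the mean of the gene over the 16 libraries; red is above and blue below the mean. The 4 libraries of number 3 are above the mean for Dusp4, Dusp5, Dusp6, Spry2 and Spry4 and below it for Mapk3.

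In number 3 the geometric mean level was 2.49 times that of the other numbers for Dusp4, 1.91 times for Spry4, 1.89 times for Dusp6, 1.86 times for Dusp5 and 1.76 times for Spry2. Number 3 was the highest library of all 4 groups for these 5 genes, as it was for 6.25% of all tested genes. It was the lowest of all 4 groups for Mapk3, at 0.751 times the level of the other numbers, as for 5.95% of all genes. For Dusp1, Spry1 and Map3k12 the ratio was 1.11, 0.945 and 0.964. Of 14 other transcriptional readouts of ERK, number 3 was highest in all 4 groups for 5 (Epha4, Etv5, Fosl1, Egr1 and Fosb) and lowest in all 4 for 1 (Myc). It was also highest in all 4 groups for 8 of 18 further brakes on RAS and ERK signaling, 6 of 23 genes of the ERK relay, 4 of 14 genes of the DLK and JNK module and 0 of 14 growth factor receptor genes. Neuronal markers summed to 4190 to 4990, 6240 to 6690, 6580 to 7280 and 2880 to 4410 CPM in numbers 1 to 4, and astrocyte markers to 2130 to 4410, 1310 to 1700, 2480 to 3610 and 2990 to 6580 CPM. The part of the makeup of the cultures in these levels was not tested.

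Across the 16 libraries, which share numbers and media, Dusp4 and Spry4 had a Pearson r of 0.948 on log2 CPM, Dusp6 and Spry2 of 0.942, and Spry2 and Spry4 of 0.924. Without number 3, r was 0.445, 0.891 and 0.635, and with the mean of each number removed over all 16 libraries it was 0.697, 0.777 and 0.653. Among all tested genes, those most like Dusp5 were Etv3, Pptc7 and Fam171a1 (r = 0.937, 0.932 and 0.908). Those most like Dusp6 were Gm32569, Csrnp1 and Spry2 (0.974, 0.946 and 0.942), and those most like Spry2 were Ier5, Dusp6 and Etv5 (0.95, 0.942 and 0.934). Those most like Dusp4 were Mylk3, Spry4 and Zfp275 (0.951, 0.948 and 0.945), and those most like Spry4 were Dusp4, Tmod1 and Ccdc63 (0.948, 0.939 and 0.936). For Dusp1 they were Gcnt1, Lama3 and Ppt1 (0.873, 0.866 and 0.852), for Spry1 Lpo, Bcl6 and Kdelr1 (0.887, 0.88 and 0.86), for Map3k12 Eml6, Zfp512b and Apc2 (0.911, 0.907 and 0.904), and for Mapk3 Itsn1, Ahr and 2610008E11Rik (0.906, 0.899 and 0.896). With the mean of each number removed, the likest genes were others for most members: Hist1h3b for Dusp5 (r = 0.918), Hip1r for Dusp4 (0.915), Bcl2l1 for Spry4 (0.936), Tpt1 for Spry2 (0.911) and Kcnc4 for Map3k12 (0.964). These are descriptions over 16 libraries, chosen as the highest of all tested genes.

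A ratio of 2 genes within a library does not depend on how the library is scaled. The ratio of Map3k12 to Map3k13, which encodes the DLK relative LZK, was on the log2 scale 2.11 ± 0.15 (SD, n = 4) in control, 2.03 ± 0.48 with apoE2, 1.92 ± 0.16 with apoE3 and 1.81 ± 0.26 with apoE4. Against control the difference was -0.30 with apoE4 (two-sided exact permutation p = 0.2, and 0.6 after Benjamini-Hochberg adjustment over 6 comparisons) and -0.18 with apoE3 (exact permutation p = 0.143, adjusted p = 0.6), and it was negative in 4 of 4 numbers for both. The smallest p that 4 against 4 libraries allow is 0.0286. Paired by number, the smallest possible exact p is 0.125, which both reached.

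**Figure D5:**
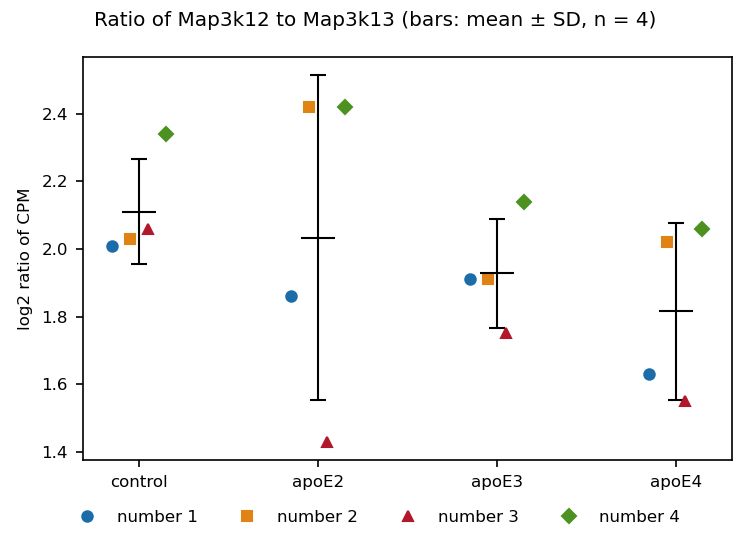
Log2 ratio of CPM (vertical axis, which does not start at 0) of Map3k12 to Map3k13 in the 4 groups; points are libraries marked by replicate number and bars give the mean ± SD (n = 4). All groups overlap, and number 4 is at or near the top of each group.

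Of the other genes of the pathway, 0 were called in any comparison without the block. The counts that follow are from the blocked fit, in which 1.73% of all genes were called with apoE2, 11.7% with apoE3 and 3.3% with apoE4 against control. Between isoforms it called 1.31% for apoE3 against apoE2, 4.44% for apoE4 against apoE2 and 1.76% for apoE4 against apoE3. Of 18 tested genes listed as further brakes on RAS and ERK signaling, 2 were higher with apoE3 and 2 with apoE4 against control, and 0 were lower in either. The share with apoE3 was near that of all genes. These were Ier3 (1.20 ± 0.21 with apoE3, adjusted p = 0.00317, edgeR, and 0.92 ± 0.21 with apoE4), Spred1, a Sprouty relative (0.47 ± 0.10 with apoE3), and Dusp16, a phosphatase that prefers JNK and p38 (1.14 ± 0.18 with apoE4, adjusted p = 0.0021, edgeR). Ier3 stood in this list although it encodes an ERK substrate that is known to prolong ERK activation, so with apoE3 and with apoE4 1 of the 2 calls is not of a brake in that sense. Dusp16 was at 7.27, 5.67, 5.55 and 9.37 CPM in control libraries 1 to 4 and at 19.3, 8.52, 11.7 and 26.8 CPM with apoE4, so it was higher in 4 of 4 numbers. Without the block its log2 fold change was 1.25 ± 0.44 (unadjusted p = 0.0125, adjusted p = 0.957, edgeR). Dusp2, another inducible nuclear phosphatase, was at -0.87 ± 0.41 with apoE3 without the block (unadjusted p = 0.0508, adjusted p = 0.77, edgeR) and was not called. Its level was low in every library, at 0.211 to 1.08 CPM. The median log2 fold change of these 18 genes with apoE4 was 0.08, against 0 over all genes tested. For apoE4 against apoE2, 2 of the 18 were higher (Dusp16, 0.96 ± 0.18, and Il17rd, 0.84 ± 0.20) and 2 lower (Rasa1, -0.39 ± 0.08, and Errfi1, -0.38 ± 0.10), and 0 were called in the other comparisons.

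Of 14 transcriptional readouts of ERK other than the 9 genes, 4 were higher and 1 was lower with apoE3 in the blocked fit, and 0 were called with apoE2 or apoE4 against control, where the blocked fit called 11.7% of all genes with apoE3. Between isoforms, 1 was called, Ccnd1, higher with apoE3 than with apoE2 (0.92 ± 0.19). Those higher with apoE3 were Phlda1 (0.93 ± 0.23), the cyclin gene Ccnd1 (1.01 ± 0.19), Epha2 (1.19 ± 0.30) and Junb (0.31 ± 0.09), and Epha4 was lower (-0.30 ± 0.09). Of 14 tested growth factor receptor genes, 3 were higher and 1 lower with apoE3, 2 were higher with apoE4, and 0 were called in the other comparisons. Fgfr2 (0.74 ± 0.17), Fgfr3 (0.81 ± 0.18) and Erbb2 (1.19 ± 0.25) were higher with apoE3, Erbb4 was lower (-0.50 ± 0.14), and Erbb2 (1.32 ± 0.24) and Igf1r (0.61 ± 0.13) were higher with apoE4. Fgfr1 was at 0.35 ± 0.15 with apoE2 without the block (unadjusted p = 0.0339, adjusted p = 1, edgeR) and was not called. The median without the block over the 14 receptors was 0.42 with apoE3 and 0.44 with apoE4, against 0.02 and 0 over all genes. Of 8 astrocyte markers, 7 were higher with apoE3 and 3 with apoE4 in the same blocked fit, and their summed level was 1410 to 3160 CPM in control, 1700 to 6580 with apoE3 and 1570 to 5360 with apoE4. Oligodendrocyte lineage markers were higher for 4 of 8 with apoE3 and 1 of 8 with apoE4. Of 8 mural and fibroblast markers, 1 was higher with apoE3 and 1 with apoE4, and the median log2 fold changes without the block were 0.84 and 0.70. Of 2 tested endothelial markers, 1 was higher with apoE3 and 1 with apoE4. Of 4 markers of dividing cells, 1 was higher with apoE2, 1 with apoE3 and 0 with apoE4, with medians of 0.36, 0.69 and 0.74. The summed level of dividing cell markers was 6.4 to 16.8 CPM in control, 18 to 27.3 with apoE2, 25.1 to 39.9 with apoE3 and 11.3 to 26.5 with apoE4. Among them, Top2a alone was at 2.18 to 7.44 CPM in control, 8.88 to 21.4 with apoE2, 15.8 to 35 with apoE3 and 4.15 to 10.4 with apoE4. The levels of Mki67, Ccnb1 and Cdk1 overlapped between control and each isoform, so the difference in the sum was mostly that of Top2a. Of 8 neuronal markers, 1 was higher and 2 were lower with apoE3, at a median of -0.20, and 0 were called with apoE2 or apoE4 against control. For apoE4 against apoE3, 1 neuronal marker was higher, and 1 oligodendrocyte lineage marker and 1 marker of dividing cells were lower. For apoE4 against apoE2, 1 astrocyte marker and 2 mural and fibroblast markers were higher. The part of these cells in the values of the receptor genes and of Ier3, Epha2, Phlda1, Ccnd1, Dusp5 and Dusp16 was not tested. The study stained cultures grown on coverslips for GFAP, and reported no significant difference in the share of astrocytes between treatments.

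Of 23 genes of the ERK relay itself, 1 was lower with apoE2 (Rps6ka5, -0.57 ± 0.13), 1 was higher (Nras, 0.35 ± 0.10) and 1 lower (Rps6ka2, -0.31 ± 0.07) with apoE3, and 1 was higher with apoE4 (Ptpn11, 0.39 ± 0.08) in the blocked fit. Over all genes the shares were 1.73%, 11.7% and 3.3%, so each of these counts lay within 1 gene of that background. For apoE4 against apoE2, 3 were higher (Ptpn11, 0.31 ± 0.08, Rps6ka2, 0.30 ± 0.07, and Rps6ka3, 0.47 ± 0.12) and 1 was lower (Hras, -0.34 ± 0.08). For apoE4 against apoE3, 1 was higher (Rps6ka2, 0.39 ± 0.07), and for apoE3 against apoE2, 0 were called. Sos1, an exchange factor for RAS, was at 0.23 ± 0.14 with apoE4 without the block and was not called in either fit. Ptpn11 encodes the phosphatase SHP2, which carries receptor signals to RAS. The medians over the 23 genes without the block were -0.01, -0.01 and 0.01 with apoE2, apoE3 and apoE4. Of 14 genes of the DLK and JNK module, 0 were called against control in either fit, and Jun was higher with apoE3 than with apoE2 in the blocked fit (0.47 ± 0.09). Map2k7 had the lowest unadjusted p there, with apoE3 (-0.17 ± 0.09) and then apoE2 (-0.16 ± 0.09). The next genes were Map3k13 with apoE4 (0.28 ± 0.21), Jun with apoE2 (-0.36 ± 0.28) and Atf3 with apoE3 (0.51 ± 0.48), and none of these was called against control.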

How the data were processed

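RNA of 16 cultures was sequenced from Illumina TruSeq libraries. The authors aligned reads to mm10 with STAR and deposited read counts per gene, made with HTSeq, as 1 table per library. The gene annotation and the strand setting of the counting are not given in the sources used here. The study's methods describe the 4 libraries of each group as independent cultures. Groups and replicate numbers come from the labels. Rows that name no gene were left out of library sizes; they held 38.4 to 73.7% of reads.

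The deposited counts were tested with edgeR 4.0.16 in R 4.3.3 (quasi-likelihood, TMM scaling, filterByExpr with a minimum count of 10 and total of 15, 1 coefficient per group over all 16 libraries, Benjamini-Hochberg over 17038 genes). CPM used TMM-scaled library sizes, log2 CPM a prior count of 2, and RPKM the exon union of GENCODE M21 on the same build. Libraries with 1 number deviated together in every pair, with correlations of 0.362 to 0.831, so the number was taken to pair them, and blocked values are given where they change a call. The ratio of Map3k12 to Map3k13 was compared by exact permutation tests. A further planned ratio, and 1 gene of the ERK relay list, are not reported here. Alternatives were DESeq2 1.42.0, DESeq2 size factors, other filters, fits to 2 groups, the block and leaving out libraries. The scripts were tested on simulated data. The members and all gene lists were chosen with earlier results of these data known. Named were all 9 members and, from each pathway list, genes called without the block (there were none) and the 4 with the smallest unadjusted p against control. Rps6ka2, Junb, Rps6ka3, Hras, Il17rd, Rasa1, Errfi1, Erbb2, Erbb4 and the readouts compared in number 3 were named after their values were seen.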

Additional observations from a re-analysis of the deposited data

Results flagged for a closer look

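In groups of 4 libraries, a library was marked where its gap to the nearest of the others as a share of the range of the group passed Dixon's 95% critical value. Chance marks about 1 in 20 groups, and 10 of 40 were marked. Of these, 8 are libraries of number 3. Dusp4 stood apart in number 3 with apoE2 (105 CPM), apoE3 (94.5 CPM) and apoE4 (160 CPM). Dusp5 did so in control 3 (24.6 CPM), Spry2 in apoE4 3 (140 CPM), and Spry4 in apoE2 3 (45.2 CPM) and apoE4 3 (63.1 CPM). Mapk3 was low in control 3 (47.9 CPM). The other 2 are number 4 libraries: Dusp1 in apoE2 4 (11.9 CPM) and the log2 ratio of Map3k12 to Map3k13 in control 4 (2.34). The genes share these libraries, so the marks are not independent of one another.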

How the results depend on the processing

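No gene of the 9 was called in any comparison with DESeq2 size factors, without a low-count filter, with a filter of 1 CPM in 8 libraries, with DESeq2, with only the groups compared, or without any 1 library. With the replicate block the count was 1 in each comparison of apoE4 and 0 in the others. The settings that follow were chosen after seeing the data. DESeq2 with the block also called 1 of the 9 in each comparison of apoE4. Of all 17038 genes it called 962 against control, 1242 against apoE2 and 703 against apoE3. The block with 1 library left out called 0, 1 or 2 of the 9, and 57 to 2714 of all genes. With all libraries of 1 number left out it called 0 or 1 of the 9. This was Dusp4 for apoE3 against control without number 2, where 1866 of all genes were called. For apoE4 against apoE3 it was Dusp5, without number 2 (284 of all genes called) or number 4 (375). Leaving out number 3 without the block called 0. The block moved all calls together, from 0 to 294 genes for apoE2 against control, from 1 to 1990 for apoE3, from 33 to 563 for apoE4, from 0 to 224 for apoE3 against apoE2, from 43 to 757 for apoE4 against apoE2 and from 25 to 300 for apoE4 against apoE3.

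Of 54 log2 fold changes, 5 changed sign under a planned setting other than leaving out 1 library, and 23 under any of 12 settings once those added after seeing the data are counted. The values from DESeq2 with the block are among those added. Spry2 went to 0.02 with the replicate block and 0.01 with DESeq2 and the block for apoE2 against control, and for apoE3 against control to -0.01 with only the groups compared and -0.02 with DESeq2, DESeq2 size factors, no filter and the stricter filter. Spry4 for apoE3 against control went to 0.02 and 0 with the block in edgeR and DESeq2, Dusp4 for apoE3 against apoE2 to 0.01 in both, and Spry1 for apoE3 against apoE2 to 0 without the filter. The 12 values over 1 standard error from 0 kept their sign in every planned setting. Leaving out 1 library changed the sign of 34 log2 fold changes and 2 of 6 ratio differences, none of them called. The cause was not tested. Their ranges follow. Dusp1 ran from -0.21 to 0.16 (apoE3 against control), -0.04 to 0.33 (apoE4 against apoE3) and -0.01 to 0.25 (apoE4 against control). Dusp4 ran from -0.83 to 0.11 (apoE2 against control), -0.36 to 0.40 (apoE3 against apoE2), -0.76 to 0.08 (apoE3 against control), -0.14 to 0.86 (apoE4 against apoE2), -0.11 to 0.79 (apoE4 against apoE3) and -0.54 to 0.54 (apoE4 against control). Dusp5 ran from -0.29 to 0.38 (apoE2 against control), -0.43 to 0.07 (apoE3 against apoE2) and -0.47 to 0.21 (apoE3 against control). Dusp6 ran from -0.31 to 0.13 (apoE3 against apoE2), -0.10 to 0.57 (apoE3 against control), -0.43 to 0.11 (apoE4 against apoE3) and -0.27 to 0.43 (apoE4 against control). Map3k12 ran from -0.08 to 0.06 (apoE3 against apoE2) and -0.08 to 0.02 (apoE4 against control). The Map3k12 to Map3k13 ratio ran from -0.21 to 0.12 (apoE2 against control) and -0.31 to 0.02 (apoE3 against apoE2). Mapk3 ran from -0.19 to 0.02 (apoE3 against apoE2) and -0.07 to 0.13 (apoE4 against apoE2). Spry1 ran from -0.10 to 0.11 (apoE3 against apoE2) and -0.25 to 0.04 (apoE4 against control). Spry2 ran from -0.20 to 0.33 (apoE2 against control), -0.13 to 0.19 (apoE3 against apoE2), -0.15 to 0.35 (apoE3 against control), -0.27 to 0.24 (apoE4 against apoE2), -0.30 to 0.20 (apoE4 against apoE3) and -0.29 to 0.40 (apoE4 against control). Spry4 ran from -0.42 to 0.18 (apoE2 against control), -0.07 to 0.38 (apoE3 against apoE2), -0.21 to 0.30 (apoE3 against control), -0.18 to 0.51 (apoE4 against apoE2), -0.30 to 0.31 (apoE4 against apoE3) and -0.32 to 0.42 (apoE4 against control).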
